A study of Mus musculus with 9 samples.

Results

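The mouse mitochondrial genome is a circle of 16299 bases that encodes 37 genes, and all 37 were present in the transcript tables of the trigeminal ganglion (TG). They were taken as every gene with a symbol that starts with mt-, which gave 13 mRNAs in the mRNA table, 2 rRNAs and 22 tRNAs in the table of other noncoding RNA, and 0 in the lncRNA table, among 55180 annotated genes in all. Here mRNA stands for an annotated protein-coding gene. Neighbours that share bases are counted apart, whether or not they lie on the same RNA molecule. The TG holds the cell bodies of the sensory neurons of the face and jaw. Male wild-type C57BL/6 mice, 8 weeks old by the study's methods, received 10 µl of saline or of complete Freund's adjuvant (CFA, 5 mg/ml), an inflammatory agent, into the temporomandibular joint (TMJ). There were 3 groups of 3 libraries, saline (Saline 1 to 3, labelled day 3), CFA on day 3 (CFA3D 1 to 3) and CFA on day 6 (CFA6D 4 to 6), and each library pooled unilateral TG punches from 3 mice. No saline group of day 6 was used, so day and treatment cannot be told apart in CFA6D against saline.

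Mitochondrial DNA is transcribed from both strands into long precursors by the RNA polymerase Polrmt with Tfam and Tfb2m. The precursors are cut at the tRNAs that lie between most of the mRNAs and rRNAs, and the RNAs released then differ in stability. The mRNAs encode core subunits of respiratory complexes I, III and IV and of the ATP synthase, while all other subunits come from nuclear genes. Sensory neurons depend on these complexes to power long axons.

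Some genes share bases with a neighbour or have near-identical copies in the nuclear genome, which bears on the levels given here for those genes. Positions are in GRCm38. The end of mt-Atp8 and the start of mt-Atp6 share 43 bases, and mt-Nd4l and mt-Nd4 share 7. Both junctions are shown because reads there lie in 2 genes, with the bases shared by both genes in capitals (chrM:7912-7984 and chrM:10152-10188, plus strand).
mt-Atp8 and mt-Atp6: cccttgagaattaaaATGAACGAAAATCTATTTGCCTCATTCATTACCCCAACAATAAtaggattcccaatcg
mt-Nd4l and mt-Nd4: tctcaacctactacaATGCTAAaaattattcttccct

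The tRNAs mt-Ti (isoleucine, chrM:3706-3774, plus strand) and mt-Ts2 (serine, chrM:11613-11671, plus strand) are shown because their values jump between libraries, and mt-Tq (glutamine, chrM:3772-3842, minus strand) because it shares 3 bases with mt-Ti. Each is printed 5′ to 3′ on its own strand, with the bases it shares with a neighbouring gene in capitals.
mt-Ti: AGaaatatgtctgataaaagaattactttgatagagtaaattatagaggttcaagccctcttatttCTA
mt-Tq: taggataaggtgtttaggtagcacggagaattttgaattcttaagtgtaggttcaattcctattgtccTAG
mt-Ts2: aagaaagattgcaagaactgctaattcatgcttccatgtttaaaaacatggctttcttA

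A stretch of the mitochondrial genome from base 6390 to 11042 is also present on the minus strand of chr1:24611535-24616188. The aligned 4654 bases are 99.936% identical, with 2 mismatches and 1 gap. The mismatches, written as mitochondrial base, position from base 1 of the mitochondrial genome and chromosome 1 base, are A6393T in mt-Co1 and T9461C in mt-Nd3, and the gap lies in mt-Tr. The copy holds 11 of the 37 genes whole (mt-Ts1, mt-Td, mt-Co2, mt-Tk, mt-Atp8, mt-Atp6, mt-Co3, mt-Tg, mt-Nd3, mt-Tr and mt-Nd4l) and parts of mt-Co1 and mt-Nd4. A window of 60 bases of mt-Co1 shows how alike the copies are. The chromosome 1 pseudogene Gm29216 has 0 differences there, and the less similar chromosome 2 pseudogene Gm13340 has 3, given in capitals (chrM:6448-6507, plus strand, chr1:24616071-24616130 and chr2:22588468-22588527, minus strand).
mt-Co1: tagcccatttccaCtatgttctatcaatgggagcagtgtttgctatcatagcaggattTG
Gm29216: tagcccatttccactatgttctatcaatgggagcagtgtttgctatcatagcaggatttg
Gm13340: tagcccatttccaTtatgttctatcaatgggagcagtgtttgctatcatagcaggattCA

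The deposited values divided the fragments between the mitochondrial genes and the chromosome 1 pseudogenes, 7 of which are listed in the tables. FPKM is a fragment count divided by transcript length and by library size, so FPKM times length is proportional to fragments. By this product, Gm28661 held 49.98% to 50.01% of the sum it made with mt-Co2 in the 9 libraries. Gm28437 held 49.94% to 49.97% of its sum with mt-Co3, Gm28438 48.9% to 49.3% of its sum with mt-Nd3, and Gm10222 49.6% of its sum with mt-Nd4l in every library. These 4 pairs were thus divided almost equally, with less than 1 percentage point between libraries. Gm10925 held more than its mitochondrial partner mt-Atp6, 76.3% to 78.1% of their sum. Gm29216, which covers 31.3% of mt-Co1, held 9.80% to 12.8%, and Gm28439, which covers 63.6% of mt-Nd4, held 21.1% to 22.8%. mt-Atp8 lies in the copied stretch with no pseudogene of its own in the tables. Reads of identical sequence cannot be told apart, so the levels of these 7 genes and of mt-Atp8 are uncertain. The less similar chromosome 2 copies Gm13340 (1.45 to 2.84 FPKM) and Gm13341 (1.96 to 4.72 FPKM) took little.

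**Figure D1:**
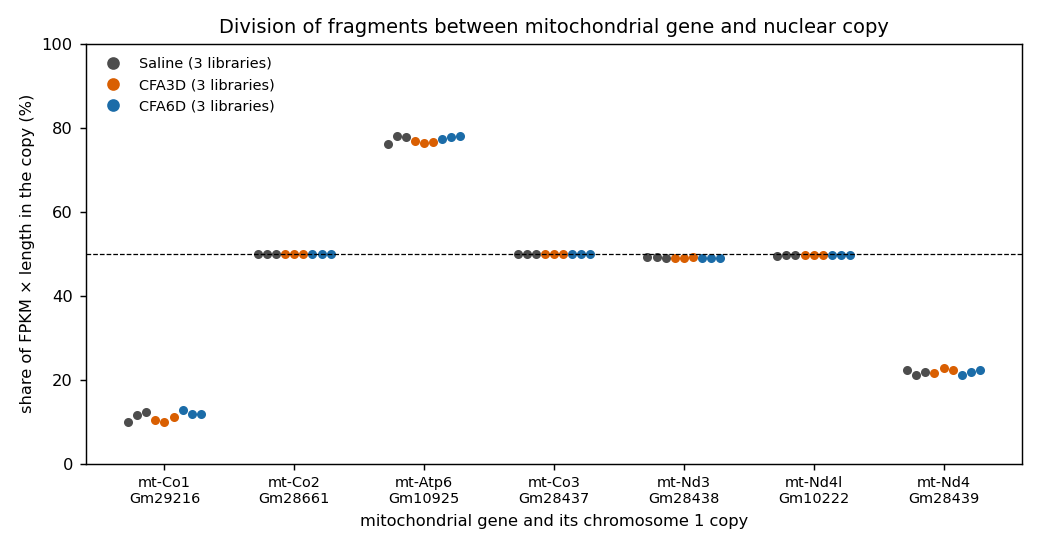
Share (%) of FPKM times length that was listed under the chromosome 1 pseudogene, for 7 mitochondrial genes and their copies; each point is 1 of the 9 libraries and the dashed line marks 50%. The 4 pairs divided almost equally lie at the line in every library, and Gm10925 holds 76.3% to 78.1% of its sum with mt-Atp6.

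Adding each copy to its gene, per base of the mitochondrial gene, changed the order of the mRNAs. As deposited, mean levels over the 9 libraries ran from 2965 FPKM for mt-Co1 to 240.2 FPKM for mt-Atp8, and mt-Atp6 was the 12th of 13 at 311.3 FPKM. With the copies added, mt-Atp6 was the 4th at 1370 FPKM, 4.40 times its deposited mean. The summed order was then mt-Co1 (3342 FPKM), mt-Co3 (2670), mt-Co2 (2605), mt-Atp6 (1370), mt-Cytb (1015), mt-Nd4l (949.6), mt-Nd4 (814.7), mt-Nd1 (656.0), mt-Nd3 (652.4), mt-Nd5 (586.6), mt-Nd2 (399.4), mt-Nd6 (333.9) and mt-Atp8 (240.2). mt-Atp8 lies in the copied stretch but has no pseudogene listed, so nothing was added to it. Its place in the summed order is therefore uncertain. The mRNAs of complex IV were the 3 highest on both scales. Several neighbours in this order did not keep it in all libraries: mt-Co3 was above mt-Co2 in 7 of 9, mt-Cytb above mt-Nd4l in 6 of 9, and mt-Nd1 above mt-Nd3 in 3 of 9.

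The levels of single libraries are deposited FPKM, in the order Saline 1 to 3, CFA3D 1 to 3 and CFA6D 4 to 6. The complex IV mRNA mt-Co1 (chrM:5328-6872), the catalytic subunit of cytochrome c oxidase, was at 2590, 3403 and 3072 in saline, 2816, 3112 and 3431 in CFA3D, and 2717, 2780 and 2764 in CFA6D. mt-Co2, which accepts electrons from cytochrome c, was at 1083, 1592 and 1365, then 1203, 1221 and 1533, then 1257, 1265 and 1204. mt-Co3 was at 1142, 1552 and 1419, then 1221, 1423 and 1658, then 1075, 1308 and 1229. For mt-Co1 every CFA6D library lay below every CFA3D library, while saline overlapped both groups. For mt-Co2 and mt-Co3 the 3 groups overlapped.

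The ATP synthase mRNA mt-Atp6 (chrM:7927-8607), part of the proton channel, was at 201.7, 377.1 and 338.6 in saline, 263.5, 268.6 and 397.8 in CFA3D, and 324.9, 325.9 and 303.5 in CFA6D. Its neighbour mt-Atp8 (chrM:7766-7969) is the shortest mitochondrial protein-coding gene at 204 bases. mt-Atp8 was at 59.1, 309.7 and 344.2, then 139.5, 111.5 and 244.7, then 336.0, 294.2 and 322.8. mt-Atp8 was thus lowest in Saline 1 and low in CFA3D 1 and 2, and its highest level was 5.82 times its lowest, the widest range among the 13 mRNAs. The CFA6D libraries all lay above the CFA3D libraries and within the range of saline. The complex III mRNA mt-Cytb (chrM:14145-15288), which encodes cytochrome b, was at 729.2, 1286 and 1171, then 886.7, 890.3 and 1187, then 1036, 977.4 and 975.4, with all groups overlapping.

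The 7 remaining mRNAs encode subunits of complex I, the NADH dehydrogenase. mt-Nd1 was at 469.4, 802.5 and 781.2 in saline, 562.1, 528.0 and 850.1 in CFA3D, and 662.3, 629.8 and 619.1 in CFA6D. mt-Nd2 was at 240.3, 546.3 and 497.6, then 333.3, 311.6 and 475.2, then 417.7, 374.7 and 398.0. Both were low in Saline 1 and high in Saline 2, Saline 3 and CFA3D 3. mt-Nd3 was at 221.2, 423.0 and 400.2, then 272.5, 326.3 and 436.4, then 248.2, 333.3 and 329.0. mt-Nd4l was at 232.0, 610.3 and 594.1, then 415.7, 366.9 and 569.5, then 516.0, 494.6 and 506.7. The same 4 libraries held the extremes of mt-Nd3 and mt-Nd4l. mt-Nd4 was at 446.6, 778.7 and 733.5, then 580.1, 564.9 and 782.8, then 637.1, 596.2 and 610.5. mt-Nd5 was at 409.9, 651.4 and 699.7, then 552.3, 526.6 and 713.5, then 597.6, 555.0 and 573.8. mt-Nd6 (chrM:13552-14070), the only mRNA encoded on the minus strand, followed the same pattern. It was at 249.8, 353.4 and 378.4, then 320.8, 333.6 and 423.2, then 313.3, 310.2 and 322.3.

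**Figure D2:**
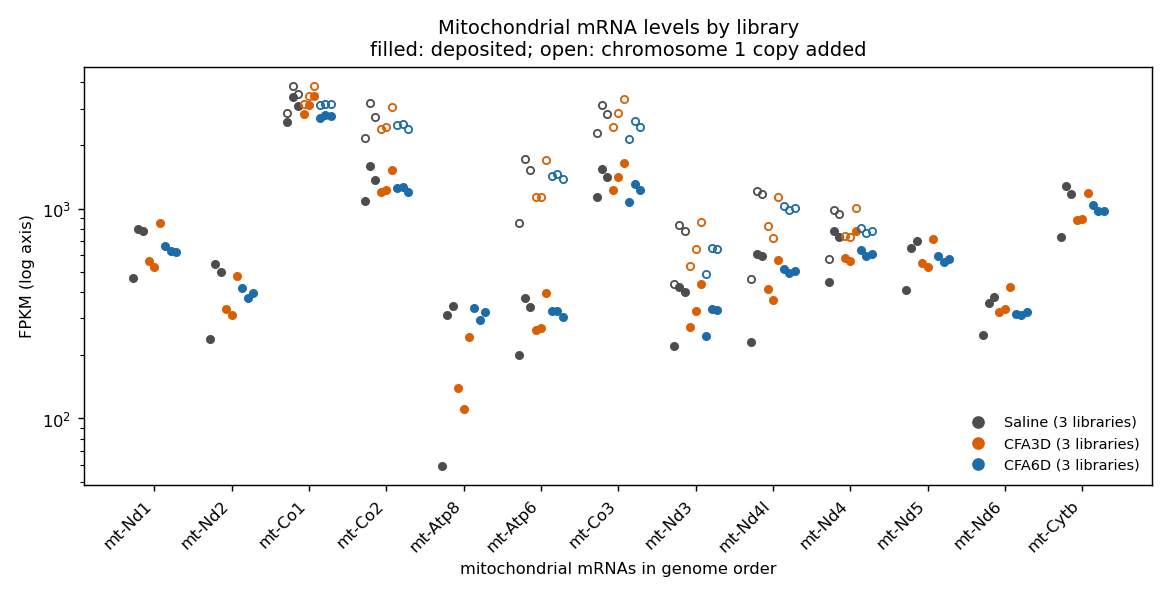
Levels of the 13 mitochondrial mRNAs in genome order (FPKM, log axis) in the 9 libraries, coloured by group; filled points are deposited values and open points have the chromosome 1 copy added. Within most genes Saline 1 is the lowest point, and the 3 CFA6D libraries lie close together.

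The mitochondrial mRNAs moved together from library to library, and these differences lay within the groups. Their summed FPKM was 8074, 12686 and 11795 in saline, 9567, 9984 and 12702 in CFA3D, and 10137, 10243 and 10158 in CFA6D. This was 3.29%, 5.52% and 4.99% of the summed FPKM of the mRNA table in saline, 4.04%, 4.02% and 5.20% in CFA3D, and 4.26%, 4.32% and 4.12% in CFA6D. These sums and shares leave out the chromosome 1 copies. By FPKM times length the copies held 0.283% to 0.451% of a library's fragments, beside 0.896% to 1.36% for the mitochondrial mRNAs. The mean shares were 4.598% ± 1.16 in saline, 4.42% ± 0.673 in CFA3D and 4.23% ± 0.102 in CFA6D (SD, n = 3), so the group means differed by less than the SD within saline. Saline 1 held the lowest value of 12 of the 13 mRNAs, both rRNAs and 16 of the 19 tested tRNAs (mean level 0.1 FPKM or more). CFA3D 3 held the highest value of 8 mRNAs, Saline 2 of 4 and Saline 3 of 1. The median ratio between the highest and the lowest library of a group was 1.74 for the 13 mRNAs in saline, 1.39 in CFA3D and 1.07 in CFA6D.

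**Figure D3:**
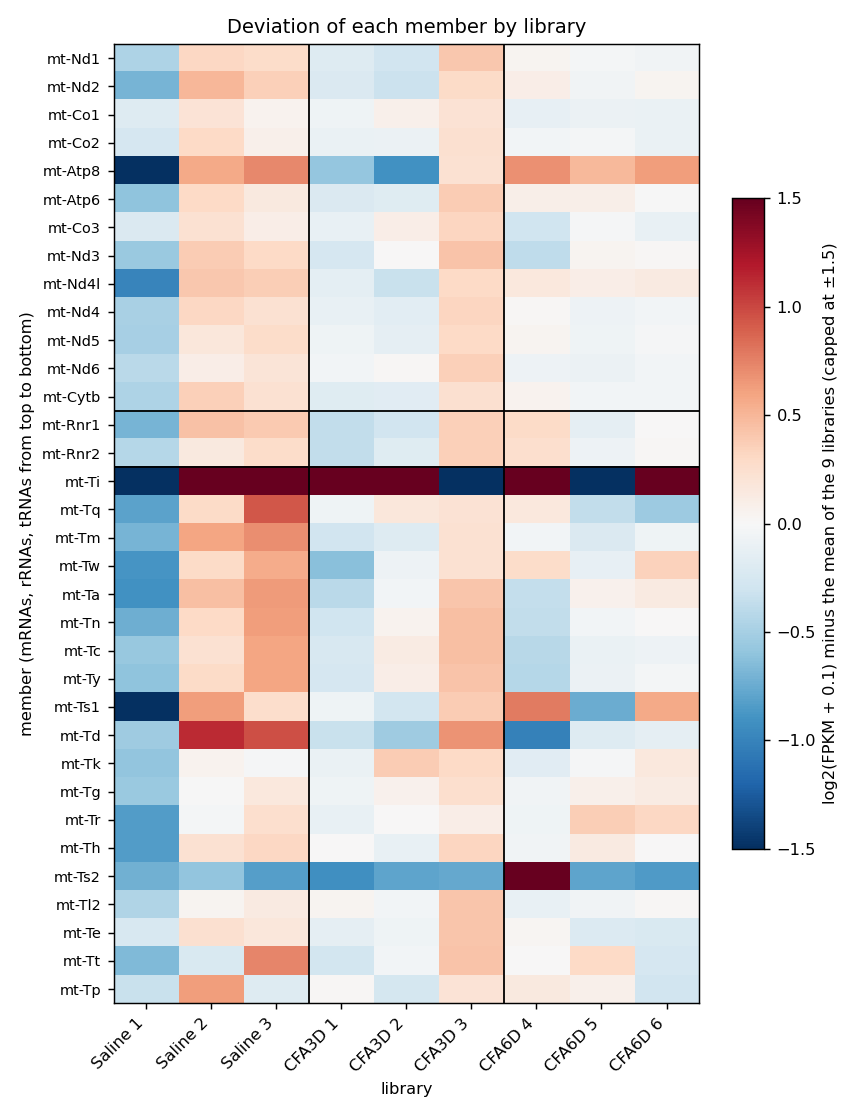
Difference of log2(FPKM + 0.1) from the mean of the 9 libraries (colour, capped at ±1.5) for the 34 tested mitochondrial RNAs, with libraries in columns. Saline 1 is blue for nearly all, and Saline 2, Saline 3 and CFA3D 3 are mostly red.

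Summed mitochondrial mRNA varied more between libraries than summed nuclear oxidative phosphorylation mRNA. Scaling factors from the median ratio over genes of at least 1 FPKM were 0.927 to 1.05. They describe the middle gene in values already scaled to library totals, not how far groups of genes vary. Summed mitochondrial mRNA varied 1.57-fold. Summed mRNA of 95 nuclear genes of the oxidative phosphorylation complexes, taken by symbol and including 8 assembly factors of the Ndufaf series, varied 1.24-fold, from 6191 to 7661 FPKM. Without the chromosome 1 copies, the ratio of mitochondrial to nuclear oxidative phosphorylation mRNA was 1.17, 1.76 and 1.84 in saline, 1.47, 1.54 and 1.66 in CFA3D, and 1.56, 1.65 and 1.56 in CFA6D. Saline 1 was therefore low in the mitochondrial mRNAs and not in their nuclear partners, at 6920 FPKM for the latter.

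The depth, estimated from the FPKM values and not from counts of sequenced reads, was 30.0 to 42.2 M read pairs per library. Saline 1 and Saline 2, at opposite ends of the saline range of summed mitochondrial mRNA, had 30.7 and 30.0 M. The part of depth in the mitochondrial levels was not tested. All 12 sensory neuron markers were above 0 in every library and summed to 1362 to 1990 FPKM. Markers of neighbouring tissues differed within saline. In Saline 2, 8 skeletal muscle markers summed to 168.2 FPKM and 6 brown fat markers to 152.4, against 1.73 to 70.8 and 9.79 to 17.1 in the other libraries, and the brown fat gene Ucp1 was at 18.3 FPKM, against 0 to 0.354. In Saline 3, 6 pituitary markers summed to 10656 FPKM, against 8.89 to 1116 elsewhere, with Gh at 9120 FPKM. All 8 muscle markers were above 0 in every library, and of the other 2 lists Ucp1, Adipoq and Lhb were at 0 in some. In CFA3D 3, which had the highest mitochondrial sum, the muscle, brown fat and pituitary markers summed to 9.87, 11.7 and 14.98 FPKM. In Saline 1 they summed to 39.0, 14.4 and 99.7 FPKM. The part of other tissues in the mitochondrial levels was not tested. In these bulk samples, fewer cells of a type and less RNA per cell cannot be told apart.

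On CFA3D against saline, no mitochondrial mRNA passed the test. In limma on log2(FPKM + 0.1), for genes whose summed transcripts averaged 0.1 FPKM or more, 0 of 13 mRNAs had an unadjusted p under 0.05, where 4.45% of the 16110 gene sums did. With Benjamini-Hochberg adjustment over the table, 0 mRNAs and 0% of all gene sums had an adjusted p under 0.05. The groups overlapped for all 13 mRNAs, where 9.13% of gene sums had groups that did not overlap. Log2 fold changes of the mRNAs ran from -0.24 (mt-Atp8) to 0.15 (mt-Nd6), with a median of 0.015, beside 0.055 over all gene sums. The 95% confidence intervals lay between -0.78 and 0.77 for the 12 mRNAs other than mt-Atp8, and from -1.56 to 1.08 for mt-Atp8. In the table of other noncoding RNA, 0 of 21 mitochondrial rRNAs and tRNAs had an unadjusted p under 0.05 (4.45% of 7753 gene sums), 0 an adjusted p under 0.05 (0%) and 0 had groups that did not overlap (8.6%).

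The smallest p-values on CFA3D were those of tRNAs. mt-Tk, the lysine tRNA, was at 3.13, 4.97 and 4.73 FPKM in saline and 4.44, 6.24 and 5.91 in CFA3D, a log2 fold change of 0.38 ± 0.21 (SE; limma adjusted p = 0.999). It rests on about 6 to 16 read pairs per library. The leucine tRNA mt-Tl2 had a log2 fold change of 0.23 ± 0.17 (limma adjusted p = 0.999) and the glycine tRNA mt-Tg one of 0.22 ± 0.18 (adjusted p = 0.999). All 3 had their lowest value in Saline 1, and their groups overlapped.

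On CFA6D against saline, 0 of 13 mRNAs had an unadjusted p under 0.05 in limma, where 11.1% of gene sums did, 0 had an adjusted p under 0.05 (0% of gene sums), and all had overlapping groups (16.2% of gene sums did not overlap). The log2 fold changes ran from -0.18 (mt-Co3) to 0.78 (mt-Atp8), with a median of -0.046, beside 0.026 over all gene sums. The intervals of the 12 mRNAs other than mt-Atp8 lay between -0.75 and 0.96, and that of mt-Atp8 was -0.54 to 2.10. Of the 21 rRNAs and tRNAs, 0 had an unadjusted p under 0.05 (6.49% of gene sums), 0 an adjusted p under 0.05 (0.0129%) and 0 had groups that did not overlap (11%). The smallest limma p-values were those of the aspartate tRNA mt-Td (log2 fold change -0.97 ± 0.50, adjusted p = 0.818), the arginine tRNA mt-Tr (0.41 ± 0.25, adjusted p = 0.854) and mt-Ts2 (2.25 ± 1.53, adjusted p = 0.869). mt-Td was at 0.247, 0.994 and 0.883 FPKM in saline and 0.149, 0.341 and 0.357 in CFA6D, which is at most about 2.5 read pairs in any library. mt-Tr was at 9.22, 16.2 and 19.7 FPKM in saline and 15.8, 21.3 and 20.4 in CFA6D.

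On CFA6D against CFA3D, 0 of 13 mRNAs had an unadjusted p under 0.05 in limma (7.41% of gene sums) and 0 an adjusted p under 0.05 (0%). mt-Co1 and mt-Atp8, 2 of 13, had groups that did not overlap, beside 16.7% of all gene sums, and they went opposite ways. mt-Co1 had a log2 fold change of -0.18 ± 0.19 (limma adjusted p = 0.834) and mt-Atp8 one of 1.02 ± 0.59 (adjusted p = 0.712). In a fit of these 2 groups alone, mt-Atp8 had the same fold change and passed an unadjusted limma p of 0.05. The share of all gene sums past it was not counted for that fit. The neighbour mt-Atp6 shares 43 bases with mt-Atp8. In the fit of all libraries mt-Atp6 had a log2 fold change of 0.06 ± 0.24 (limma adjusted p = 0.958). With the chromosome 1 copy added it was 0.13 ± 0.27. mt-Atp8 lies in the copied stretch, so its level is uncertain. mt-Co3 had a log2 fold change of -0.25 ± 0.18 (limma adjusted p = 0.757). The median over the mRNAs was -0.042, beside -0.021 over all gene sums. Of the rRNAs and tRNAs, 0 of 21 had an unadjusted p under 0.05 (5.44% of gene sums), 0 an adjusted p under 0.05 (0.0387%) and 0 had groups that did not overlap (12.2%). The comparisons share libraries, so they are not independent of each other.

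**Figure D4:**
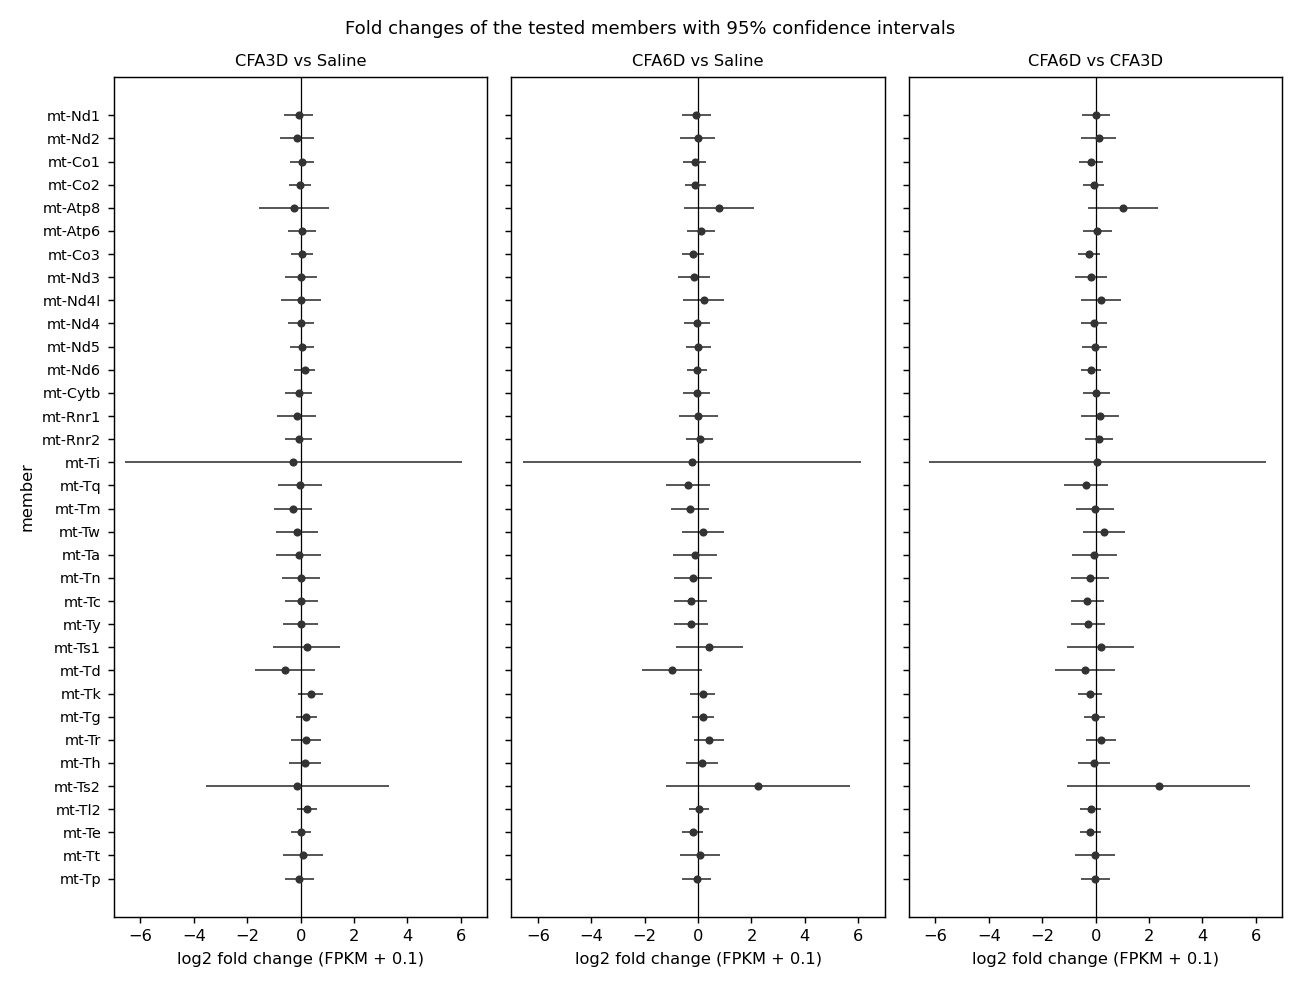
Log2 fold changes (points) with 95% confidence intervals (bars) of the 34 tested mitochondrial RNAs in the 3 comparisons, from limma on log2(FPKM + 0.1). All intervals include 0, and those of mt-Ti and mt-Ts2 are the widest.

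The spread between libraries set how small a difference could be seen. The median standard error of a log2 fold change was 0.22 for the 13 mitochondrial mRNAs, 0.15 over all gene sums and 0.12 over the 312 gene sums of at least 100 FPKM. The median residual SD was 0.30 for the mitochondrial mRNAs and 0.14 for gene sums of that level. The mitochondrial mRNAs thus had a larger median spread within groups than mRNAs of that level, a set that includes them. This spread was unequal between groups. The median ratio of highest to lowest library was 1.74 in saline, 1.39 in CFA3D and 1.07 in CFA6D. Saline 1 was the lowest library for 12 of the 13 mRNAs.

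Saline 1 decided the counts against saline. It held the lowest value of most mitochondrial RNAs, so leaving it out raised their saline means by construction. These RNAs also moved together, so the counts below are not of separate results and test no difference from saline. Without Saline 1, 7 of 34 mitochondrial RNAs were lower in CFA3D than in the other 2 saline libraries (unadjusted limma p under 0.05). In CFA6D 7 were lower in the same way, and 0 were higher in either group. In CFA3D these were mt-Atp8 (-1.06), mt-Nd2 (-0.51), mt-Nd4l (-0.44) and the tRNAs mt-Ta, mt-Td, mt-Tm (-0.73) and mt-Tw, that is 3 of 13 mRNAs and 4 of 21 rRNAs and tRNAs, where 1.08% and 2.35% of all gene sums were lower and 8.37% and 3.35% higher in the 2 tables. In CFA6D all 7 were tRNAs (mt-Ta, mt-Tc, mt-Td, mt-Tm, mt-Tn, mt-Tq and mt-Ty), of 21, where 3.07% of gene sums were lower, and 0 of 13 mRNAs were lower, where 1.96% were. Between the days, mt-Atp8 passed an unadjusted limma p of 0.05 without Saline 1, at the same log2 fold change as in the fit of all libraries (1.02 ± 0.25). It was 1 of 13 mRNAs, where 8.4% of gene sums passed. The lowest adjusted p of these in limma was 0.353, that of mt-Tm on CFA6D. The median log2 fold change of the mRNAs was -0.25 in both comparisons without Saline 1. Of the 2 saline libraries left, Saline 2 had the highest muscle and brown fat marker sums and Saline 3 the highest pituitary sum, and their part in these values was not tested.

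Mitochondrial rRNA was scarce in these libraries, which the study's methods describe as depleted of rRNA before sequencing. mt-Rnr1 (chrM:70-1024), the 12S rRNA of the small ribosomal subunit, was at 1.12, 2.57 and 2.498 FPKM in saline, 1.43, 1.51 and 2.42 in CFA3D, and 2.30, 1.70 and 1.89 in CFA6D. mt-Rnr2 (chrM:1094-2675), the 16S rRNA of the large subunit, was at 9.39, 14.0 and 15.3, then 9.74, 11.1 and 16.3, then 14.99, 12.0 and 12.8. Both were lowest in Saline 1, and mt-Rnr2 was 5.45 to 8.39 times mt-Rnr1 within a library. Summed rRNA was 0.117% to 0.171% of summed mitochondrial mRNA by FPKM. The labels name another library kit, and the part of depletion in these levels was not tested. On CFA3D the log2 fold changes were -0.15 and -0.07 against saline, and on CFA6D 0.01 and 0.06, for mt-Rnr1 and mt-Rnr2.

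The tRNA genes, 59 to 75 bases long, spanned the full range from 0 to 323.8 FPKM. The 5 highest were all encoded on the minus strand, which holds 8 of the 22 tRNA genes. Of these 5, mt-Tc (cysteine, 145.4 to 323.8 FPKM), mt-Tn (asparagine, 96.5 to 248.4), mt-Ty (tyrosine, 81.5 to 187.0) and mt-Ta (alanine, 35.3 to 103.4) lie side by side between bases 5018 and 5326, and mt-Te (glutamate, 80.5 to 126.7) lies next to mt-Nd6. mt-Ta, mt-Tn, mt-Tc and mt-Ty also lie whole in a copy on chromosome 2 that is 97.362% identical. mt-Ta and mt-Tn lie whole in another on chromosome 5 that is 97.911% identical. The part of these copies in the levels was not tested. Summed over genes, minus strand tRNAs were at 465.4 to 1011 FPKM and plus strand tRNAs at 108.5 to 251.7 in a library. The highest plus strand tRNA was mt-Tm (methionine), at 27.1 to 71.4 FPKM. The methods describe strand-specific libraries, but whether the values were counted by strand is not given in the sources used here, so fragments of the opposite strand cannot be told apart. Fragments of mature tRNAs and of uncut precursors cannot be told apart in these values either.

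Among the other tRNAs, mt-Tl2 (25.7 to 46.8 FPKM), mt-Th (17.2 to 38.6), mt-Tp (20.6 to 40.3), mt-Tr (9.22 to 21.3), mt-Tg (11.2 to 19.7), mt-Tt (7.99 to 21.2), mt-Tw (6.53 to 17.8) and mt-Tq (5.14 to 17.3) were present in all 9 libraries. mt-Tk (3.13 to 6.24), mt-Ts1 (0.359 to 2.15) and mt-Td (0.149 to 0.994) were low. All 3 lie in the stretch copied on chromosome 1, as do mt-Tr and mt-Tg. mt-Tl1 (0 to 0.265) and mt-Tv (0 to 0.0322), on either side of mt-Rnr2, had means under 0.1 FPKM, and mt-Tf was listed at 0 in all libraries. These 3, which flank the rRNAs, were not tested. The summed tRNA level was 573.9, 1086 and 1263 FPKM in saline, 762.6, 905.3 and 1151 in CFA3D, and 787.2, 836.7 and 865.3 in CFA6D, and the groups overlapped.

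The tRNAs mt-Ti and mt-Ts2 were listed at levels far apart between libraries. mt-Ti was at 25.0 and 20.4 FPKM in Saline 2 and 3, 15.99 and 18.5 in CFA3D 1 and 2, and 19.9 and 16.7 in CFA6D 4 and 6, and at no more than 0.00463 FPKM in Saline 1, CFA3D 3 and CFA6D 5. Each group thus had 1 library near 0 and 2 with about 44 to 57 read pairs. mt-Ts2 was at 31.3 FPKM, or about 73 read pairs, in CFA6D 4 and at 0.119 to 0.176 FPKM, less than 1 read pair, in the other 8 libraries. Neighbours showed no such steps, with mt-Tq (which shares 3 bases with mt-Ti) at 5.14, 10.5 and 6.96 FPKM in the 3 libraries with mt-Ti near 0, and mt-Th at 29.6 FPKM in CFA6D 4. The cause of these steps was not tested. A 129-base stretch that matches mt-Th and parts of mt-Nd4 and mt-Ts2 at 100% lies at chr2:69355538-69355666.

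**Figure D5:**
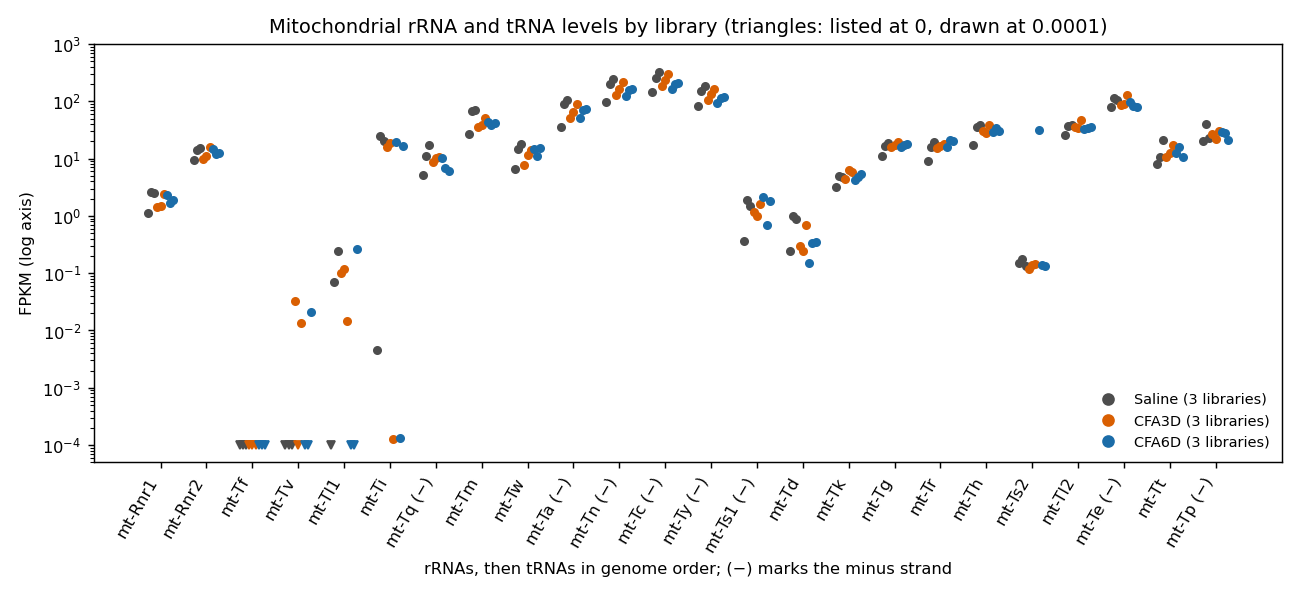
Levels of the 2 rRNAs and the 22 tRNAs in genome order (FPKM, log axis) in the 9 libraries, coloured by group; triangles drawn at 0.0001 are values listed at 0. The minus strand tRNAs from mt-Ta to mt-Ty are the highest cluster, and mt-Ti and mt-Ts2 split into separate levels.

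Nuclear genes that act on mitochondrial DNA and its RNA were counted in the same way. Of 44 genes listed, 43 were in the table and tested. At an unadjusted limma p under 0.05, 2 were higher and 1 lower on CFA3D (4.65% and 2.33%, beside 3.64% and 0.807% of all gene sums). On CFA6D 1 was higher and 1 lower (2.33% each, beside 8.21% and 2.85%). Between the days 0 were higher and 1 lower (0% and 2.33%, beside 3.07% and 4.34%). In each comparison 0 passed an adjusted p of 0.05. Those higher on CFA3D were Slirp (0.32 ± 0.13, adjusted p = 0.997), partner of the mRNA-stabilizing protein Lrpprc, and Rexo2 (0.19 ± 0.08, adjusted p = 0.997), an exonuclease of short RNA. Mterf2, of the transcription termination factor family, was lower than in saline, with log2 fold changes of -0.35 ± 0.14 for CFA3D (adjusted p = 0.997) and -0.39 ± 0.14 for CFA6D (adjusted p = 0.351). Grsf1, a protein of mitochondrial RNA granules, was higher on CFA6D (0.22 ± 0.08, adjusted p = 0.329), and Tfb2m was lower on CFA6D than on CFA3D (-0.28 ± 0.11, adjusted p = 0.64). Polrmt (-0.20 ± 0.12 on CFA3D and -0.05 ± 0.12 on CFA6D), Tfam (0.11 ± 0.11 and -0.03 ± 0.11) and Lrpprc (0.17 ± 0.08 and 0.06 ± 0.08) did not pass this threshold against saline.

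Of the nuclear oxidative phosphorylation genes, 92 were tested. On CFA3D against saline 1 was higher and 3 lower at an unadjusted limma p under 0.05, on CFA6D against saline 1 higher and 12 lower, and on CFA6D against CFA3D 0 higher and 10 lower, with 0 past an adjusted p of 0.05. The shares lower were 3.26%, 13% and 10.9%, beside 0.807%, 2.85% and 4.34% of all gene sums. Among the 312 gene sums of at least 100 FPKM, 0.641%, 5.13% and 6.73% were lower. Their median log2 fold changes were 0.012, -0.11 and -0.10. On CFA6D the lower genes included the complex I subunits Ndufa13 (-0.33 ± 0.07, adjusted p = 0.153) and Ndufv2 (-0.28 ± 0.08, adjusted p = 0.24) and the ATP synthase subunit Atp5o (-0.35 ± 0.10, adjusted p = 0.216). Cox8b, a complex IV isoform of striated muscle and brown fat, was lower on CFA3D (-3.28 ± 1.36, adjusted p = 0.997), and Cox7a1, a like isoform, on CFA6D (-1.15 ± 0.48, adjusted p = 0.42). The muscle and brown fat markers were highest in Saline 2, and their part in this was not tested. These counts changed with the library left out. On CFA6D against saline, 7 of the 92 genes were lower without Saline 2 (573 of all 16110 gene sums were lower and 864 higher). It was 20 without Saline 3 (629 of all gene sums lower and 1152 higher) and 7 without CFA6D 5 (449 lower and 1313 higher). On CFA3D against saline, 0 were lower without Saline 2, CFA3D 1 or CFA3D 2, where 1.38%, 0.621% and 0.788% of all gene sums were. There, 5 (5.43%) were lower without Saline 3 and 7 (7.61%) without CFA3D 3, beside 1.3% and 0.714% of all gene sums. Between the days, 18 (19.6%) were lower without CFA3D 1 and 6 (6.52%) without CFA3D 3, beside 3.92% and 4.17% of all gene sums. The count of mitochondrial mRNAs past the threshold was 0 without Saline 2 and 0 without Saline 3.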

How the data were processed

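The deposited values are FPKM of single transcripts, which the authors split by RNA class into an mRNA, an lncRNA and an other noncoding table. Their methods describe rRNA-depleted, strand-specific libraries, trimming with Trimmomatic, mapping to GRCm38 and expression levels from CLC Genomics Workbench, while the labels name another library kit, mm8 and Bowtie 0.12.2. The program that gave FPKM is not given in the sources used here. All sample columns were used (0 left out). Transcripts were joined to GENCODE names, and FPKM was summed by gene.

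Genes averaging 0.1 FPKM or more were tested by limma 3.58.1 under R 4.3.3 on the log2(FPKM + 0.1) scale. One fit per table held all 9 libraries and no covariate, used empirical Bayes with a trend, and was adjusted by Benjamini-Hochberg over the table. This scale understates changes of low genes. The fit was tested on simulated data. The p-values measure the spread between pooled libraries.

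The worth of 1 read pair was read from the steps of low products of FPKM and length. Depths and read pairs are such estimates, and FPKM scales each library to its own total. Nuclear copies were found with BLAST 2.17.0 against GRCm38, at 95% identity over at least 100 bases. The members and gene lists were chosen with earlier results of these data known. Fold changes are given for mitochondrial RNAs with p under 0.05 or, where fewer than 3, for the 3 smallest p-values and the mRNAs with the lowest and highest fold change, which were added after values were seen, as was the addition of copies. Nuclear genes of mitochondrial expression are named where p was under 0.05, with Polrmt, Tfam, Tfb2m and Lrpprc, and oxidative phosphorylation genes named in the text were chosen after their values were seen. Alternatives changed the pseudocount, the filter, the scaling, the libraries in the fit, the trend and the replicate block.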

Additional observations from a re-analysis of the deposited data

How the results depend on the processing

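The count of mitochondrial RNAs past an unadjusted limma p of 0.05 was 0 in all 3 comparisons under other pseudocounts (0.01 and 1), filters, scalings, single transcripts, no trend, and the chromosome 1 copies added, the last chosen after seeing the data. In a fit of only the 2 groups compared it was 1 for CFA6D against CFA3D (mt-Atp8). With a replicate block for saline and CFA3D it was 1 (mt-Tk, log2 fold change 0.38). For these 2 fits the share of all gene sums past the threshold was not counted. The replicate numbers did not pair the libraries (correlations of same-numbered deviations 0.0599, -0.129 and 0.0415). Leaving out 1 library at a time gave 0 to 7 for CFA3D against saline, 0 to 7 for CFA6D against saline and 0 to 1 between the days, with 7 in both cases and 1 between the days (mt-Atp8, log2 fold change 1.02) without Saline 1. It also gave 1 of 21 rRNAs and tRNAs on CFA3D without CFA3D 1 (mt-Tk), where 4.17% of all gene sums passed. On CFA6D without Saline 3 it gave 1 of 21 (mt-Tr, 0.63), where 7.26% of all gene sums passed. The median log2 fold change of the mitochondrial mRNAs ran from -0.25 to 0.14, -0.25 to 0.10 and -0.13 to 0.10. Log2 fold changes against saline turned in sign with 1 library left out for mt-Atp8 (-1.06 to 0.21 on CFA3D and -0.042 to 1.23 on CFA6D, the sign turning to 0.13 and 0.21 without Saline 2 and Saline 3 on CFA3D and to -0.042 without Saline 1 on CFA6D), mt-Nd6 (-0.037 to 0.26 on CFA3D, negative without Saline 1) and mt-Ts2 (-0.11 to 3.44 on CFA6D, negative without CFA6D 4). With FPKM times length the mitochondrial share of the mRNA table was 2.07%, 1.95% and 1.79% in saline, CFA3D and CFA6D. mt-Td could not be tested at a mean of at least 1 FPKM. With 3 libraries of pooled mice per group, the precision is that of the intervals given.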
